A study of Lotus japonicus with 36 samples.

Results

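The middle of a nitrate treatment was examined in root nodules of the legume Lotus japonicus by setting nodules on day 4 of nitrate (T4, 3 libraries) against nodules on day 2 (T2, 3 libraries). Nodules on day 3 (T3, 3 libraries) are shown as the day between and entered no test. These libraries were taken from a series of 36 by their column names, T4-1 to T4-3 and T2-1 to T2-3, 6 of 36 libraries in all. All plants were of the MG-20 accession and all of these groups received 10 mM KNO3. The series also holds nodules on nitrate days 1, 5 and 6 (T1, T5, T6), nodules on days 1 to 5 after nitrate was taken away (R1 to R5) and untreated nodules at 4 weeks after inoculation (T0), each with 3 libraries. No untreated nodules of a later age are among these groups, so days on nitrate and age of the nodule cannot be told apart.

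A nodule is a root organ in which rhizobia fix nitrogen in exchange for sugars from the plant, at a low oxygen level kept by leghaemoglobin. Legumes given nitrate reduce fixation, since nitrate can serve as a cheaper source of nitrogen, and longer supply leads to premature senescence of the nodule, in which proteins are broken down and their nitrogen is withdrawn. In Lotus japonicus, nodules that have lost fixation under nitrate can regain it when nitrate is removed. In the data analysed here the transcript models carry IDs without gene names, so the nodule identity of the samples was not checked with leghaemoglobin or other markers, and gene groups are described by level, direction and time. Each sample is a whole nodule tissue, in which fewer cells of a type and less RNA per cell cannot be told apart.

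The T2, T3 and T4 libraries held 37077842 to 42455760 counts each, within the range of 34194054 to 45795038 over all 36 libraries. Their TMM factors, which correct for differences in library composition, lay between 1.02 and 1.21. Levels are given in CPM, the counts of a model relative to all counts of its library. Over 32934 models that averaged 1 CPM or more in T4 and T2, libraries of T4 correlated with each other at 0.974 to 0.981 on the log2 CPM scale and those of T2 at 0.974 to 0.977. Between T4 and T2 the correlation was 0.892 to 0.925. The T3 libraries were less alike, at 0.959 to 0.976, and their correlation with T4 (mean 0.955) and with T2 (mean 0.940) lay between these values. No pair of libraries in a group was alike enough to be a library present more than once, since the chi-square statistic of their counts was at least 10.1 per degree of freedom.

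Between day 2 and day 4 of nitrate, 2988 transcript models rose and 2910 fell, in nearly equal numbers. Together these 5898 models made up 11.7% of the 50475 models tested, 5.92% as rises and 5.77% as falls, and they belonged to 5202 loci. A model was called where it changed 2-fold or more with an adjusted p under 0.05 (edgeR, quasi-likelihood), and 22.9% of the tested models passed the adjusted p alone. The median called rise was 1.64 on the log2 scale (quartiles 1.27 and 2.29), and the median called fall was -1.54 (quartiles -2.19 and -1.21). The median over all tested models was 0.01, a centre near 0 that the TMM scaling largely sets. Rises and falls are thus relative to the other models, and a change in total RNA would not be seen. Of the rises 1006 were at least 4-fold and 176 at least 16-fold, and of the falls 909 and 187. Only 1 locus had a model called in each direction. When counts were first summed by locus, so that the division of reads between models of a locus no longer mattered, 2609 loci rose and 2426 fell, 12.2% of 41263 loci.

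**Figure D1:**
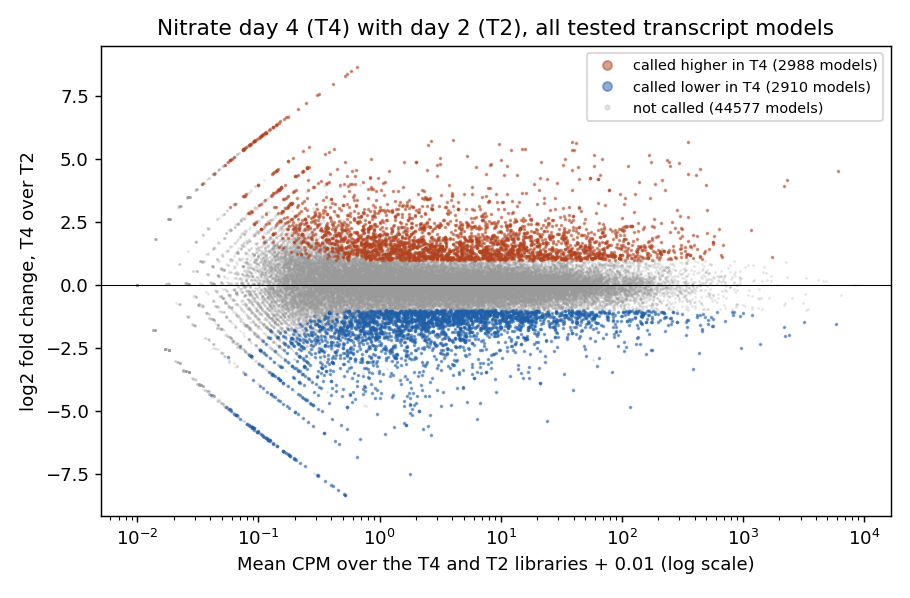
The log2 fold change of T4 over T2 (vertical axis) against the mean CPM over both groups plus 0.01 (horizontal log axis), 1 point for each of the 50475 tested models. The 2988 models called higher and the 2910 called lower in T4 lie on both sides of 0 at all levels, and the bands at the far left are models with few counts.

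The calls reached over the whole range of levels. Of the 17541 models with a mean below 1 CPM over the T4 and T2 libraries, 818 rose and 849 fell (9.50% called). From 1 to 10 CPM the share was 13.3%, with 1183 rises and 1385 falls, and from 10 to 100 CPM it was 11.2%, with 792 rises and 545 falls. Of the 1626 models at 100 to 1000 CPM, 190 rose and 123 fell (19.3%), and of the 54 models above 1000 CPM, 5 rose and 8 fell (24.1%). Models with more counts are tested with more power, so these shares do not measure how often models of each level changed. The models that rose had a median length of 1216 bp and those that fell 1197 bp, beside 1223 bp for all tested models.

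The called models moved without overlap of libraries nearly throughout. All T4 libraries lay above all T2 libraries, or all below, in 2884 of the 2988 rising models and in 2871 of the 2910 falling models, beside 43.0% of all tested models. Since calls require a large difference, this only describes how uniform the libraries were. Together the rising models took 14.7 ± 1.79% of all counts in T4, against 4.14 ± 0.708% in T2 (SD, n = 3 each). The falling models took 4.01 ± 0.481% of counts in T4, against 11.5 ± 0.807% in T2. These shares describe the chosen models and were not tested.

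The levels of the same models in libraries outside this comparison place this exchange in the longer course. The falling models took 2.87 ± 0.220% of all counts in T6, against 22.1 ± 0.967% in untreated nodules. They were thus a group with a large share of the untreated nodule's transcripts. Their T4 libraries, at 3.63% to 4.55%, still lay above those of T6 at 2.62% to 3.01%. Such a share is weighted to the abundant models. In log2(mean CPM + 1) the median difference of the falling models from T0 was -1.37 in T4 and -1.43 in T6. The median falling model was thus near its day 6 level on day 4, which helped choose these models. The rising models took 1.98 ± 0.169% in T0, 1.96 ± 0.303% in T1, 21.0 ± 1.35% in T5 and 24.1 ± 2.70% in T6. Their share in T4 was therefore still below that of T5 and T6, whose libraries, at 19.5% to 26.8%, all lay above the T4 libraries at 13.4% to 16.7%.

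Models were named by the size of their change among called models that averaged at least 10 CPM in T4 or T2. They also had no overlap of libraries and counts unlike any other row, with 1 model a locus. Models at lower levels had larger fitted changes in both directions. By this rule Lj1g3v1362130.2 (2093 bp) and Lj3g3v3054430.1 (1684 bp) had the largest rises. Lj1g3v1362130.2 was at 119.5, 55.6 and 51.5 CPM in the T4 libraries, against 0.295, 2.19 and 2.01 CPM in the T2 libraries. In T3 it was at 24.8, 62.0 and 70.3 CPM. All T3 and T4 libraries thus lay far above T2, while T3 and T4 overlapped. On the log2 scale T4 was higher than T2 by 5.67 ± 0.49 (SE, edgeR adjusted p = 3.56e-08). Its mean was 0.513 CPM in T0 and 0.308 CPM in T1, and it stood at 150.7 CPM in T5, 143.8 CPM in T6 and 43.2 CPM in R5. Only 55.6% of its count values were whole, and how reads were divided over models is not known. The other model of its locus (2556 bp) was also called higher, with a log2 fold change of 5.64, and the pair may not be 2 separate rises.

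Lj3g3v3054430.1 was at 1188, 494.6 and 379.6 CPM in the T4 libraries, against 0.969, 9.48 and 30.3 CPM in the T2 libraries. The T2 libraries spread widely, yet none came near the T4 libraries. The T1 mean of this model was 0.290 CPM, and its T0 libraries were at 0.129, 0.236 and 6.55 CPM. In T3 the model was at 274.4, 686.9 and 729.7 CPM, again overlapping T4. Its log2 fold change was 5.66 ± 0.94 (SE, edgeR adjusted p = 6.76e-05). It was 7.05 without T2 replicate 3 and 5.01 without T4 replicate 1, and it stayed called in both cases. The model was still at 488 ± 119 CPM in R5, against 1606 ± 471 CPM in T6 (SD, n = 3 each). Of its count values 66.7% were whole.

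By the same rule the largest falls were those of Lj1g3v1180810.1 (148 bp) and Lj3g3v2661930.1 (109 bp), both very short models. Lj1g3v1180810.1 was at 0.953, 1.71 and 0.682 CPM in the T4 libraries, against 42.4, 28.9 and 70.6 CPM in the T2 libraries. Its T3 values of 19.3, 12.4 and 6.50 CPM lay between the groups without overlap with either. Its change on the log2 scale was -5.40 ± 0.65 (SE, edgeR adjusted p = 1.62e-06). All of its count values were whole. The mean was 63.9 CPM in T0, 109.2 CPM in T1, 47.3 CPM in T2 and 1.12 CPM in T4. In T6 it was at 0, 0 and 0.0633 CPM, and in R5 it was back at 38.9, 9.88 and 7.56 CPM.

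Lj3g3v2661930.1 was at 0.335, 0.223 and 0.376 CPM in the T4 libraries, against 1.20, 34.6 and 1.86 CPM in the T2 libraries. The groups did not overlap, but the T2 mean rests on T2 replicate 2. The log2 fold change was -5.31 ± 1.39 (SE, edgeR adjusted p = 0.00600), and without that library it was -2.28 and no longer passed (edgeR adjusted p = 0.253). Its T3 values of 1.09, 25.1 and 104.1 CPM all lay above T4 and reached from below to above the T2 values. It was at 342.7 ± 148 CPM in T6 and 107.6 ± 126 CPM in T1 (SD, n = 3 each), so this model changed up and down between single days, with libraries of 1 day far apart in T1, T2 and T3.

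**Figure D2:**
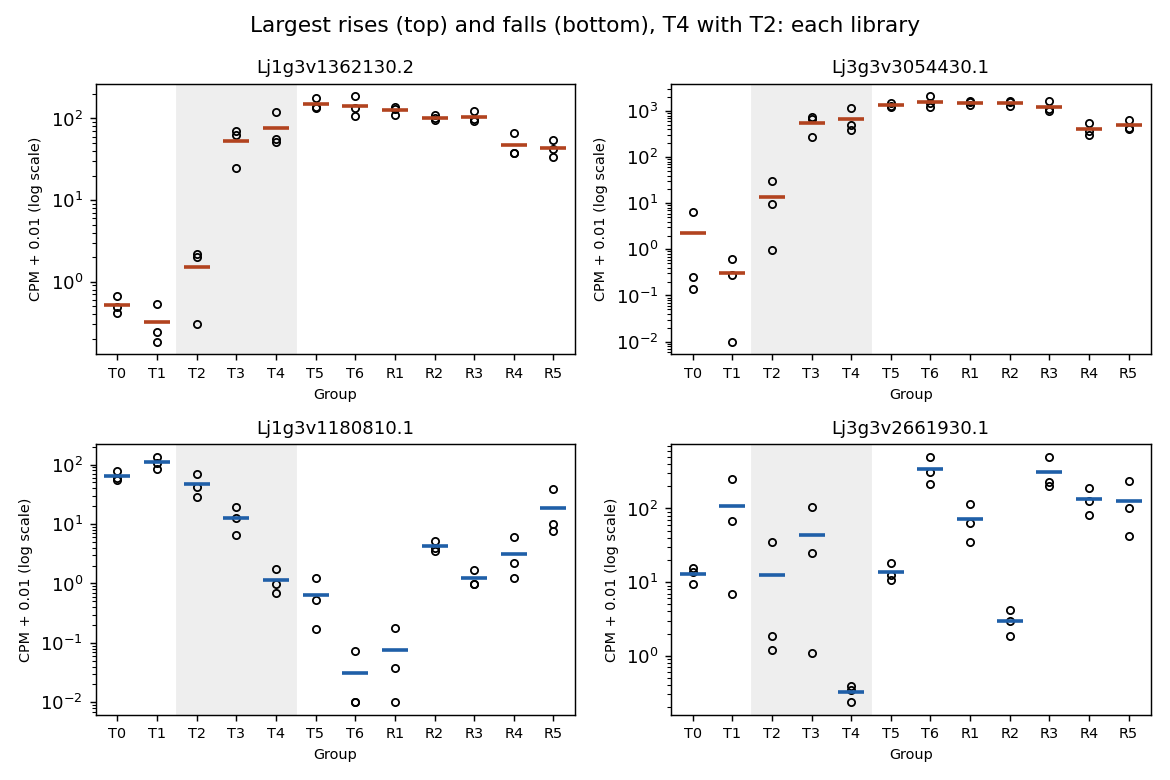
CPM plus 0.01 (log axis) of the 4 named models in all 12 groups, with open circles for the 3 libraries of a group and a coloured bar for their mean; the shaded band holds T2, T3 and T4. Both rising models jump between T2 and T3, Lj1g3v1180810.1 steps down over T3 and T4, and Lj3g3v2661930.1 scatters between libraries.

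Some models crossed the limit of detection in these days. Among the called rises, 63 had 0 counts in all T2 libraries, and among the called falls 72 had 0 counts in all T4 libraries. These were models at low level, with a median of 0.189 CPM in T4 for the first group and 0.221 CPM in T2 for the second. In the first group, the highest model had a length of 930 bp. It was at 1.86, 0.968 and 1.01 CPM in T4 and at 0 in the T2 libraries. With a floor of 3 counts in each library this is at least 18.1-fold higher (edgeR adjusted p = 7.04e-07). In T3 it was at 0.874, 1.71 and 1.95 CPM, and it stood at 6.76 CPM in T6, against 0 counts in T0. In the second group the highest model had a length of 408 bp. It was at 0 in the T4 libraries and at 1.24, 0.670 and 1.14 CPM in T2, at least 13.7-fold lower (edgeR adjusted p = 0.000391). Its T3 values were 0.477, 0.643 and 0 CPM, and its T0 mean was 4.67 CPM. Of the 63 models, 33 also had 0 counts in T0 and 21 were at 1 CPM or more in T6, and of the 72 models, 23 had 0 counts in T6.

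Of the 10 models that took the most counts over the T4 and T2 libraries 1 rose, 1 fell and 8 were not called, beside 11.7% called over all tested models. Among the first 20, 2 rose, 4 fell and 14 were not called. The model of the first rank (1425 bp) was at 8194, 8425 and 8410 CPM in T4, against 7546, 8115 and 9606 CPM in T2. The groups overlapped (log2 fold change -0.01 ± 0.21, SE, edgeR adjusted p = 0.974). In T3 all of its libraries were lower, at 5037, 4938 and 5572 CPM, and it had been at 715 CPM in T0. Its gain over untreated nodules was thus in place by day 2 and its level on day 4 overlapped that of day 2, with a lower level on the day between.

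The model of the third rank (1030 bp) was the riser among the 10. It was at 18750.3, 8854 and 7681 CPM in the T4 libraries, against 94.0, 664.9 and 786.8 CPM in the T2 libraries. Its T3 libraries, at 3915, 11843 and 12947 CPM, overlapped T4 and lay above T2. T4 over T2 gave 4.51 ± 1.11 on the log2 scale (SE, edgeR adjusted p = 0.00361), with a large error since single libraries of T4 and T2 lay far from the others of their day. Its mean was 31237 CPM in T6, against 21.8 CPM in T0, where the libraries were at 0.710, 2.42 and 62.2 CPM. Only 8.33% of its count values were whole. A similar course was seen in the model of the 16th rank (946 bp), all of whose values were whole. It was at 6562, 3606 and 2963 CPM in T4, against 40.6, 380.8 and 299.0 CPM in T2 (log2 fold change 4.19 ± 0.98, SE, edgeR adjusted p = 0.00247). In both models T4 replicate 1 was the highest and T2 replicate 1 the lowest of the T4 and T2 libraries. The same held for Lj1g3v1362130.2 and Lj3g3v3054430.1 above, so the spread of these rising models is shared between them.

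The model of the 4th rank (471 bp) was the faller among the 10. It was at 2615, 3782 and 2569 CPM in the T4 libraries, against 8571, 7302 and 10348 CPM in the T2 libraries. The groups were apart, and T3, at 5155, 3187 and 2435 CPM, lay below T2 and overlapped T4. The log2 fold change was -1.55 ± 0.30 (SE, edgeR adjusted p = 0.000442). Its mean was 1240 CPM in T6, against 23827 CPM in T0. A second model of its locus (493 bp) had rank 20. None of the values of either was whole, so their counts may not be separate. That model was at 880 ± 247 CPM in T4 and 3557 ± 494 CPM in T2 (SD, n = 3 each; log2 fold change -2.01 ± 0.35, SE, edgeR adjusted p = 0.000125). Models of ranks 12 (8530 bp) and 15 (1369 bp) also fell, with log2 fold changes of -1.45 and -1.98 (edgeR adjusted p = 0.000331 and 8.97e-05).

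The models of ranks 8 and 10 passed the adjusted p without reaching 2-fold. Rank 8 (734 bp) was at 2352, 2422 and 2262 CPM in T4, against 4261, 4476 and 4826 CPM in T2, with close agreement within each day. Its log2 fold change was -0.95 ± 0.18 (SE, edgeR adjusted p = 0.000303). This model had been at 2236 CPM in T0 and thus stood on day 4 near its untreated level, which it had exceeded on day 2. Rank 10 (461 bp) was at 1564, 2928 and 2221 CPM in T4, against 4113, 3956 and 5166 CPM in T2 (log2 fold change -0.98 ± 0.34, SE, edgeR adjusted p = 0.0373). Unlike rank 8 it had started far higher, at 11322 CPM in T0. The models of ranks 2, 5, 6, 7 and 9 had log2 fold changes of -0.38 to 0.29, with adjusted p-values of 0.0912 to 0.642 by edgeR.

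The summed share of each library's 100 leading models was 18.5%, 17.2% and 16.5% in T4, against 18.3%, 18.0% and 19.9% in T2. The groups overlapped and differed by -1.30 percentage points (two-sided exact permutation p = 0.3, where 3 against 3 cannot go below 0.1). The difference was -0.718 without T2 replicate 3 and -0.865 without T4 replicate 3. The number of models with at least 1 CPM was 32497, 32467 and 32975 in T4 and 32693, 32435 and 32257 in T2 (exact permutation p = 0.4). The mean difference of 184.7 models was 20.3 without T4 replicate 3, 82.3 without T2 replicate 3 and 300.3 without T2 replicate 1. With 3 libraries a group neither measure could pass the threshold, so these tests say nothing on whether the days were alike. In T0 the 100 leading models had held 24.5 ± 0.962% of counts (SD, n = 3).

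On day 3 most of the called models were part of the way from day 2 to day 4. On the scale of log2(mean CPM + 1), where low models appear to change less than they do, the T3 mean of the rising models lay at a median of 55.0% of the way from T2 (0%) to T4 (100%), with quartiles of 33.2% and 82.1%. For the falling models the median was 52.1%, with quartiles of 33.8% and 72.0%. The T3 mean lay between the T2 and T4 means in 2561 of the 2988 rising models (85.7%) and in 2564 of the 2910 falling models (88.1%). It was beyond the T4 mean in 361 rising models (12.1%) and 196 falling models (6.74%), and on the far side of T2 in 66 and 150. The T2 and T4 libraries chose these models, so their means lie apart partly by selection, and these places are descriptions.

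**Figure D3:**
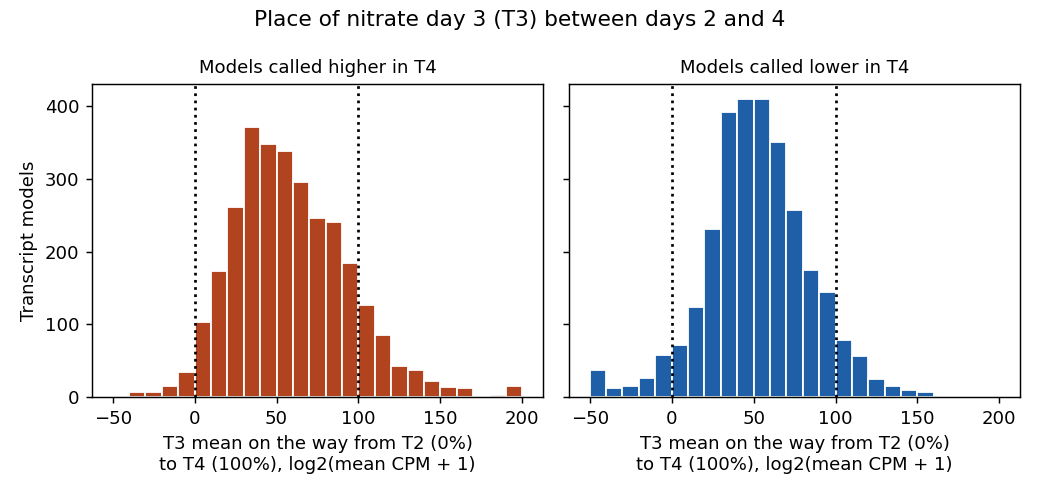
Number of called models (vertical axis) by the place of their T3 mean on the way from T2 (0%) to T4 (100%) on the log2(mean CPM + 1) scale, for the models called higher (left) and lower (right) in T4; the end bars hold all values beyond them. Most models lie between the dotted lines, with medians of 55.0% and 52.1%.

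The day 3 libraries differed in this place. Taken singly, T3 replicate 1 lay at a median of 39.0% for the rising models and 43.3% for the falling models. Replicate 2 lay at 51.6% and 50.2%, and replicate 3 at 67.3% and 75.6%. T3 replicate 1 was thus nearest to T2 and replicate 3 nearest to T4 in both sets of models. The same order was seen in single models above, as in the model of the third rank and in Lj1g3v1180810.1, while Lj3g3v2661930.1 had the opposite order.

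A position between untreated nodules (T0, 0%) and nitrate day 6 (T6, 100%) was computed for each library from the 10279 models higher and the 9777 models lower in T6 than in T0. The T2, T3 and T4 libraries are in neither group of that contrast, but they entered the estimate of the spread in the same fit. For the models higher in T6, the T4 libraries lay at 67.5%, 65.7% and 64.0%, against 35.6%, 41.9% and 33.7% in T2. For the models lower in T6, the T4 libraries lay at 73.8%, 67.7% and 71.7%, against 36.9%, 40.6% and 36.9% in T2. In both sets every T4 library was beyond every T2 library, with differences of 28.6 and 33.0 percentage points (two-sided exact permutation p = 0.1 each, the smallest possible). The T3 libraries lay at 47.1%, 55.5% and 62.5% on the first and at 45.0%, 51.5% and 64.6% on the second, between both groups without overlap.

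**Figure D4:**
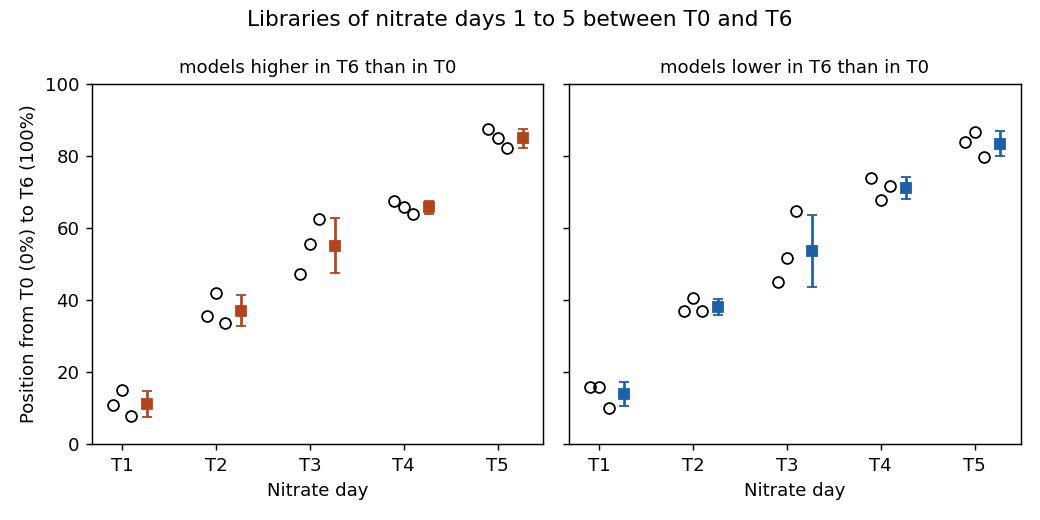
Position of each library between T0 (0%) and T6 (100%) on the vertical axis for nitrate days 1 to 5, over the models higher in T6 than in T0 (left) and lower (right). Open circles are libraries, squares with bars the mean ± SD of 3; the T4 libraries, at 64.0% to 73.8%, lie above the T2 libraries at 33.7% to 41.9%, and the T3 libraries spread most.

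The positions were also computed without the models called between the days. With all called models among the 5898 left out, 7619 of the models higher in T6 remained. On these the T4 libraries averaged 58.0% and the T2 libraries 42.8%, a difference of 15.2 points. For the 7503 remaining models lower in T6 the averages were 66.3% and 44.5%, a difference of 21.8 points. Both again had an exact permutation p of 0.1, the smallest possible. The models kept here include those that passed the adjusted p but changed less than 2-fold.

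Most of the models that changed between day 2 and day 4 had also changed in the same direction over the whole treatment, in a comparison of T6 with T0 whose groups hold no T4 or T2 library, within the same fit. Of the 2988 rising models 2522 (84.4%) were called higher in T6 than in T0, beside 20.4% of all tested models, and 45 (1.51%) were called lower. Of the 2910 falling models 2229 (76.6%) were called lower in T6 than in T0, beside 19.4% of all tested models, and 138 (4.74%) were called higher. Read from the other side, the rising models were 24.5% of all models called higher in T6, beside 5.92% of the models tested. The falling models were 22.8% of those called lower, beside 5.77% of the models tested. Over the 32934 models averaging 1 CPM or more, the fold changes of T4 over T2 and of T6 over T0 had a Pearson correlation of 0.710, and Spearman's rho was 0.645. These are given as descriptions across models, which come from libraries normalised together and are not independent replicates.

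Few of these models had been called on the first day of nitrate, though in their own direction the share was above that of all tested models. Of the rising models 138 (4.62%) were already called higher in T1 than in T0, beside 2.0% of all tested models, and 59 (1.97%) were called lower, beside 1.3%. Of the falling models 123 (4.23%) were called lower in T1 and 51 (1.75%) higher. The median log2 fold change of T1 over T0 was 0.00 for the rising and -0.18 for the falling models. Across the same 32934 models the correlation of T4 over T2 with T1 over T0 was 0.0698 (Pearson) and 0.0786 (Spearman).

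Most of these models were not called between days 5 and 6, though in their own direction calls were more frequent than over all tested models. In T6 against T5, 271 of the rising models (9.07%) were called higher, beside 2.27% of all tested models, and 45 were called lower. Of the falling models 247 (8.49%) were called lower, beside 1.91%, and 154 (5.29%) were called higher, beside 2.27%. Among the falling models calls were thus more frequent than over all tested models in both directions. The median log2 fold change of T6 over T5 was 0.09 for the rising models and -0.22 for the falling models, beside -0.08 for all tested models.

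After nitrate was taken away the movement turned. Between days 1 and 5 of removal (R5 against R1), 1699 of the rising models (56.9%) were called lower, beside 11.4% of all tested models, and 22 were called higher. Of the falling models 2023 (69.5%) were called higher in R5, beside 14.3% of all tested models, and 41 were called lower. The median log2 fold changes of R5 over R1 were -1.24 and 1.93. Across the same 32934 models, R5 over R1 had a Pearson correlation of -0.629 with T4 over T2 (Spearman -0.556). In R5 the rising models were at a median of 0.62 above T0 in log2(mean CPM + 1), and the falling models at -0.33, so the medians of both sets lay off their untreated level. The falling models took 17.5 ± 3.88% of counts in R5, beside 2.64 ± 0.115% in R1 (SD, n = 3 each).

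**Figure D5:**
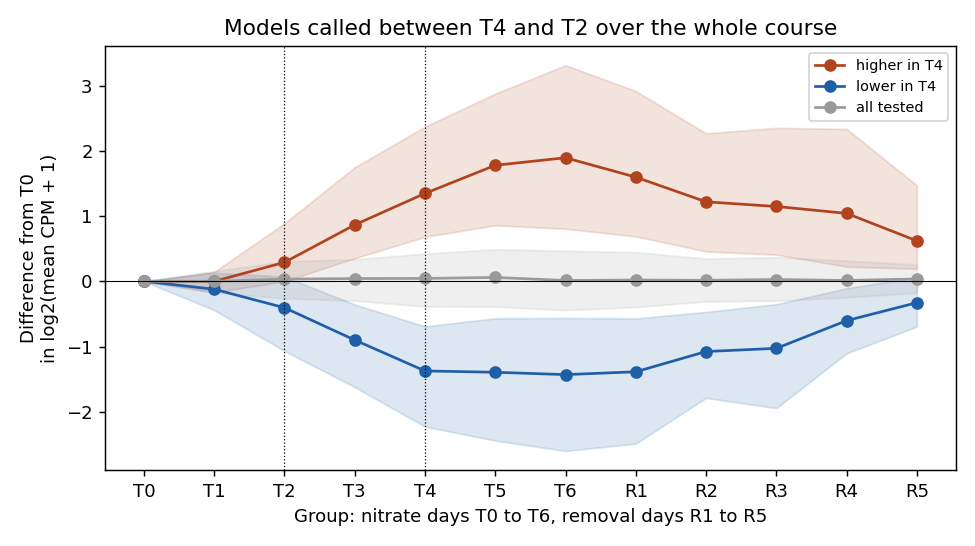
Difference from T0 in log2(mean CPM + 1) (vertical axis) over the 12 groups for the models called higher in T4 than in T2, lower, and all tested models; points are medians and bands the quartiles. The dotted lines mark T2 and T4, which chose the models; the medians of the rising set are 1.89 in T6, 1.60 in R1 and 0.62 in R5, and those of the falling set -1.43, -1.39 and -0.33.

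The middle step was set against the steps of equal length before and after it. T2 differed from T0 in 19.1% of all tested models, T4 from T2 in 11.7% and T6 from T4 in 13.4%. Tested within the same edgeR fit, the change from T2 to T4 differed from that from T0 to T2 in 5163 models (10.2% of those tested), lying above it in 1858 models (3.68%) and below it in 3305 (6.55%). Without T2 replicate 3 these counts were 1107 and 2102. Of the 3305 models 2465 (74.6%) went down in the middle step after going up in the first, with medians of -0.64 and 1.06 on the log2 scale, and 210 were called in both steps. A further 710 (21.5%) went up in both, little in the middle step (median 0.30) and more in the first (2.14). Of the 1858 models 1540 (82.9%) went up in the middle step after going down in the first, with medians of 0.73 and -1.08, and 195 of them were called in both steps.

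A T2 value that is extreme by chance moves both steps in opposite directions, so patterns of reversal are favoured among these models, and how many arose that way was not tested. A smaller group moved further in the middle step than in the first, in the same direction. In 95 models both steps were up, with medians of 2.12 in the middle step and 0.32 in the first. In 130 both were down, with medians of -2.05 and -0.26. Only 9 and 12 of them were called in both steps, so for most a change in the first step was not shown. Lj1g3v1180810.1 had a log2 fold change of -5.40 over the middle step, against -0.43 over the first. The model was among those called for the difference of the steps (edgeR adjusted p = 0.000441). It was named for the size of its middle step, so that p-value gives no support of its own and this is a description.

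The change from T4 to T6 differed from that from T2 to T4 in 3705 models (7.34% of those tested), above it in 2042 (4.05%) and below it in 1663 (3.29%). Of the 2042 models 1803 (88.3%) went up between T4 and T6 after going down between T2 and T4, with medians of 1.12 and -0.87 on the log2 scale, and 356 of these were called in both steps. Of the 1663 models 1226 (73.7%) went down after going up, and in 225 (13.5%) both steps were up, with medians of 0.48 in the last step and 2.61 in the middle step. The T4 libraries are shared by both steps, so a T4 value that is extreme by chance favours reversals here too. On the log2 scale Lj1g3v1362130.2 changed by 0.93 between T4 and T6, against 5.67 between T2 and T4, and Lj3g3v3054430.1 by 1.22 against 5.66. Both were among the 1663 models (edgeR adjusted p = 7.01e-05 and 0.0271 for the difference of the steps). They were named for the size of their middle step, which favours a smaller last step. The p-values therefore give no support of their own, and the values are descriptions.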

How the data were processed

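RNA-seq of root nodules was analysed from the 36 libraries of the series. fastp 0.22.0, HISAT2 and featureCounts were used for trimming, alignment and counting, per the submitters' processing notes. For build, annotation and counting settings, the sources used here give nothing. The authors deposited estimated counts and FPKM values for 50526 transcript models. In the estimated counts 49.6% of values were not whole (tolerance 0.001), and 3753 rows had the same counts as another row, so models are not all independent. The deposited FPKM values served only to derive model lengths. None of the IDs could be matched to the RefSeq gene table (assembly LjGifu_v1.2, another assembly), so the planned lists of gene symbols were not used and no gene names, functions or sequences are given.

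Estimated counts were rounded and fitted over all 36 libraries in 12 groups with edgeR 4.0.16 under R 4.3.3, using TMM, filterByExpr, glmQLFit and glmQLFTest. The filter kept 50475 models. Calls were made at a 2-fold change and an adjusted p (Benjamini-Hochberg over all models) under 0.05. The row with another kind of ID held 0.00595% of counts and stayed in. CPM used TMM-adjusted library sizes. For single values per library, two-sided exact permutation tests were run with scipy 1.17.1. Named models are the 2 largest rises and 2 largest falls among called models that reached 10 CPM on average in either group, with no overlap of libraries, 1 model a locus and counts unlike any other row. In addition, the 10 models with the highest mean CPM over T4 and T2 are given by rank. Ranks 12, 15, 16 and 20 and the models at 0 counts were chosen after their values were seen. Lower bounds use a floor of 3 counts per library and cover counting error only. The procedure was tested on simulated data.

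Alternatives were RLE size factors, DESeq2 1.42.0, other filters, a fit of 6 libraries, replicate blocks, counts summed by locus, no fold threshold and single libraries left out. The comparison, models and lists were chosen with earlier results of these data known. Whether the libraries of a group came from separate plants is not stated, so p-values measure the spread between these libraries.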

Additional observations from a re-analysis of the deposited data

Results flagged for a closer look

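The change over nitrate days 2 to 4 differed from that over days 0 to 2 in 5163 models, and the change over days 4 to 6 differed from that over days 2 to 4 in 3705 models, each by an edgeR quasi-likelihood test of the difference between the 2 steps. Neighbouring steps share the libraries of the day between them, and a value of that day that is extreme by chance moves both steps in opposite directions. The part this plays in the counts was not tested.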

How the results depend on the processing

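No model called between T4 and T2 was called in the other direction under any of the 16 model-level alternatives that were compared model by model, and 70.0% to 100% of the higher calls and 69.2% to 99.97% of the lower calls kept their call. The lowest shares came without T2 replicate 3 (higher) and with the filter of at least 1 CPM (lower). That filter took models below 1 CPM out of the fit, 849 lower calls among them, and these were counted as not kept. Its share is thus largely set by the removal. The next lowest for the lower calls came without T4 replicate 3, where 2039 of 2910 were kept. Without a fold threshold 5294 models passed as higher and 6251 as lower. The share of higher calls was 45.9% there, and up to 54.4% without T4 replicate 3. DESeq2 gave 3202 higher and 3196 lower models, and RLE size factors 2981 and 2936. With 1 T2 or T4 library left out, higher calls ranged from 2231 to 2882 and lower calls from 2159 to 2707. A replicate block in a fit of the 6 libraries gave 2711 higher and 2686 lower models, and in the fit of all 36 libraries, added after the data had been seen, 2940 and 2872. Deviations of same-numbered T4 and T2 libraries correlated at -0.168 to -0.056 (other pairs -0.0561 to 0.205), so the numbers gave no sign of pairing, and no named model lost its call under the block. In the block over 6 libraries the log2 fold change of Lj3g3v2661930.1 was -4.12. With 1 of the 9 T0, T2 and T4 libraries left out, 1107 to 1848 models had a middle step above the first and 2102 to 3292 one below it, the lowest of both without T2 replicate 3. The cause was not tested. Lj3g3v2661930.1 lost its call without T2 replicate 2 (log2 fold change -2.28, edgeR adjusted p = 0.253). The other 3 named models stayed called under all 13 alternatives, with edgeR or DESeq2 adjusted p-values up to 0.0129. Leaving out libraries for the values per library was also added later: differences in axis position stayed between 26.9 and 34.6 points and kept their direction. The difference in the share of the 100 leading models ranged from -1.83 to -0.718 points and that in models of at least 1 CPM from 20.3 to 300.3. Models below about 0.1 CPM rest on a few counts, so changes there are limited by depth.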
